A study of Mus musculus with 23 samples.

Results

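The collagen genes of the mouse liver are described here in 15 female mice of 3 genotypes. A gene was a member when its symbol in the deposited table had the form Col, a number, a and a number, and at least 1 read was counted on it in any mouse. Of 27179 genes in the table, 44 had such a symbol, 43 had a read and 1, Col26a1, had none. All groups carried Alb-Cre and TRP53 flx/flx, so that Trp53 was targeted in the liver of every mouse, the controls included. The 6 Ctrl mice were BRAF wt and ICMT flx/+. The 6 ABpIF/+ mice carried in addition the BrafCA knock-in allele, which expresses BrafV600E, and also ICMT flx/+, and the 3 ABpIF/F mice carried the knock-in with ICMT flx/flx (the sample labels give the Braf genotype of these mice as +/+, the design text as CA/+). Alb-Cre is driven by the albumin promoter, which acts in hepatocytes, and RNA came from liver tissue without visible tumors. Ages were not given in the labels. The strain label of all ABpI mice was shared by 1 Ctrl mouse, BG3, while the other 5 Ctrl mice carried another one, so strain label and genotype were largely not separable.

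Collagens are triple helices of 3 chains, and each gene codes for 1 chain. The fibrillar collagens (types I, II, III, V, XI, XXIV and XXVII) form the cross-banded fibrils of scar and capsule, and in the liver they come mainly from stellate cells and portal fibroblasts. Basement membrane collagens (type IV with types XV and XVIII) form sheet-like networks under endothelium and epithelium. The others include the beaded filaments of type VI, the FACIT collagens that sit on fibrils (such as types XII, XIV and XVI), short network-forming chains and transmembrane collagens.

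Between 24742910 and 32262649 counts per mouse were assigned to genes. Icmt, the targeted gene, lay between 27.8 and 34.7 CPM (counts relative to the library size after TMM scaling) in Ctrl, between 27.8 and 37.4 in ABpIF/+ and between 15.2 and 16.6 in ABpIF/F mice. A score of circadian clock genes (the mean standardized level of genes that peak with Dbp minus that of genes that peak with Bmal1) lay between 0.17 and 1.33 in the Ctrl and ABpIF/+ mice other than Ctrl mouse malpa387, which was at -2.39, and between -3.17 and -1.12 in ABpIF/F mice. All ABpIF/F mice thus scored below all ABpIF/+ mice, so a fit with the score as a covariate cannot tell score and genotype apart there. Differences are log2 fold changes ± SE of edgeR's quasi-likelihood test, with p-values adjusted by Benjamini-Hochberg over all 27179 genes. Calls required an adjusted p under 0.01 together with a change of at least 2-fold. The p-values set a group difference against the spread between mice within groups, estimated over the 3 groups together. In comparisons with Ctrl they do not separate genotype from strain label.

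In ABpIF/+ livers 14 of the 43 collagen genes were lower than in Ctrl and 4 were higher, which is 32.6% and 9.30% of the members. Of all genes tested, 5.35% were called lower and 4.69% higher in that comparison. Of those 27179 genes, 20380 had a read. Genes without a read could not be called, so here and below the shares over genes with a read are higher. In ABpIF/F livers 4 members were higher than in Ctrl and 1 was lower, beside 4.55% and 2.38% of all genes, and the single lower gene (2.33% of the members) is thus no more than the share of all genes. Between the ABpI groups, 15 members (34.9%) were higher in ABpIF/F than in ABpIF/+, beside 5.49% of all genes. None was called lower there by this test or by DESeq2, 1 was lower at an unadjusted p under 0.05, and 1.76% of all genes were called lower. That gene, Col22a1, which stays under 1 CPM, was called lower with the newer quasi-likelihood method of edgeR and at an adjusted p under 0.05 with any fold change. The median log2 fold change of the 43 members was -0.82 for ABpIF/+ vs Ctrl, 0.34 for ABpIF/F vs Ctrl and 1.12 for ABpIF/F vs ABpIF/+, while that of all genes tested was 0 in each and that of the 12316 genes averaging 1 CPM or more lay between -0.04 and 0.02. With genes at or under 3 counts per library set to that floor, the 3 medians were -0.69, 0.31 and 0.91. With mice of the ABpI strain label only, which leaves 1 Ctrl mouse, the medians against Ctrl were -0.10 for ABpIF/+ and 0.94 for ABpIF/F. The 3 comparisons share groups, so they are not independent of each other.

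The members split into 11 fibrillar, 8 basement membrane and 24 other collagens. A group mean of at least 1 CPM was reached by 22 members, and 21 stayed below it in every group. Of those 21, 6 had fewer than 10 counts over all 15 mice (Col2a1, Col6a4, Col9a1, Col11a1, Col19a1 and Col28a1), and their differences were not detectable at this depth.

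Per length of transcript, 1 gene dominated in all groups. Col18a1, which codes for the collagen from which endostatin is cut, reached 152 ± 4.80 RPKM (SD, n = 6) in Ctrl. Col14a1 followed at 6.78 ± 0.658 RPKM, Col3a1 at 5.53 ± 0.551 and Col4a1 at 4.16 ± 0.865, and the ranges over mice of neighbours in this order, Col18a1 aside, overlapped. In ABpIF/+ livers the genes after Col18a1 (231 ± 28.0 RPKM) were Col4a2 at 3.27 ± 0.518, Col4a3 at 2.87 ± 0.748 and Col4a1 at 2.58 ± 0.476, so that type IV chains stood where Col14a1 and Col3a1 had been. In ABpIF/F livers (n = 3) the order was Col18a1 at 188 ± 38.7, Col4a1 at 7.87 ± 2.17, Col14a1 at 7.02 ± 1.87 and Col3a1 at 7.02 ± 2.79 RPKM. Because Col18a1 held between 65.9% and 94.6% of the collagen CPM of a mouse, the summed level of all members mostly followed that gene.

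Of the fibrillar collagens 6 of 11 were lower in ABpIF/+ livers than in Ctrl, and none was higher at an unadjusted p under 0.05 or in DESeq2. Their summed CPM lay between 78.0 and 103 in Ctrl, between 8.67 and 19.4 in ABpIF/+ and between 80.0 and 156 in ABpIF/F mice. The ABpIF/+ range thus lay entirely below the other groups, whose ranges overlapped. In such bulk samples, fewer cells of a type and less RNA per cell cannot be told apart. These are RNA levels, and lower RNA does not mean less deposited collagen, which was not measured here. By picrosirius red staining the authors reported more periportal collagen in ABpIF/+ livers, and markedly less fibrosis in ABpIF/F than in ABpIF/+ livers. The median log2 fold change of the 11 genes was -2.06 for ABpIF/+ vs Ctrl, 0.58 for ABpIF/F vs Ctrl and 2.24 for ABpIF/F vs ABpIF/+.

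Type I collagen, the main protein of scar fibrils, is built from 2 α1 chains and 1 α2 chain. Col1a1 (Entrez 12842, chromosome 11 of GRCm38, 94936224 to 94953042) had 7.37, 8.67 and 14.4 CPM as lowest, median and highest value in Ctrl, and 0.155, 0.366 and 0.991 in ABpIF/+ mice. Its CPM in the 3 ABpIF/F mice were 12.1, 15.7 and 31.7. Every ABpIF/+ mouse was below every mouse of the other groups, the ABpIF/F and Ctrl mice overlapped, and the highest ABpIF/F value was that of mouse BG38. The log2 fold change was -4.30 ± 0.37 for ABpIF/+ vs Ctrl (adjusted p = 1.77e-07), 1.08 ± 0.35 for ABpIF/F vs Ctrl (adjusted p = 0.041, not called) and 5.37 ± 0.41 for ABpIF/F vs ABpIF/+ (adjusted p = 3.80e-07). Col1a2 (Entrez 12843, chromosome 6, 4504814 to 4541544) had 7.67, 11.2 and 14.1 CPM in Ctrl, 0.604, 1.47 and 2.49 in ABpIF/+ and 10.4, 16.3 and 22.6 in ABpIF/F mice. It was lower in ABpIF/+ by a log2 fold change of -2.94 ± 0.28 (adjusted p = 2.36e-07) and did not pass the test between ABpIF/F and Ctrl (0.58 ± 0.30, adjusted p = 0.238).

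Type III collagen is the reticulin collagen of the liver and copolymerises with type I. Col3a1 (Entrez 12825, chromosome 1, 45311538 to 45349706) was the fibrillar gene with the highest level, at 28.1, 29.9 and 36.3 CPM in Ctrl. The ABpIF/+ mice had 0.806, 1.28 and 2.78 CPM and the ABpIF/F mice 24.3, 37.7 and 55.3. The decrease in ABpIF/+ was 19.9-fold (log2 fold change -4.32 ± 0.27, adjusted p = 3.69e-09) with no overlap, while ABpIF/F mice spanned the Ctrl range (0.34 ± 0.27, adjusted p = 0.508). Between the ABpI groups it differed by 4.66 ± 0.29 (adjusted p = 1.25e-07).

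The start regions of Col1a2 and Col3a1 are shown because they belong to the fibrillar genes with the largest changes for which a RefSeq window was given (GRCm38.p6, 250 bases before to 50 after the start). They lie at chr6:4505368-4505667 and chr1:45311288-45311587, both on the plus strand. Capitals mark matches to a CCAAT box or to a TATA box, the latter searched as TATAAA, on either strand.
Col1a2: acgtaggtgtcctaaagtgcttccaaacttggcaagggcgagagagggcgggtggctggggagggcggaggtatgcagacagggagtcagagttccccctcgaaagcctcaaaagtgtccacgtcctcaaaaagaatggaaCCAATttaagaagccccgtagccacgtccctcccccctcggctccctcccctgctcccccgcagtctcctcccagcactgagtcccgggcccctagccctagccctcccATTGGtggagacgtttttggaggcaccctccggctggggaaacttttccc
Col3a1: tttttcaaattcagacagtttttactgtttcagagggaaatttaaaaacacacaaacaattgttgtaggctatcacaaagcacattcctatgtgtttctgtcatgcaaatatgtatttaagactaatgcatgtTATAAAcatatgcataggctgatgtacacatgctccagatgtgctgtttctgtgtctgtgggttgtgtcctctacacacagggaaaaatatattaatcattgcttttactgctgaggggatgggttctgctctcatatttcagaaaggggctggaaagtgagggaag
Windows were matched for 35 of the 43 members. The letters CCAAT were present on either strand in 13 of them, which is 37.1%, and in 37.4% of all 32851 windows, and the TATA box in 5 (14.3%) and 13.6%. The GC box, searched as GGGCGG on both strands, was found in 22 members (62.9%) and in 35.7% of all windows. The Col1a2 window holds the letters of a CCAAT and a GC box but not TATAAA. The Col3a1 window holds TATAAA but neither of the others. These are letter matches at any place in the window, and their use as promoter elements was not tested.

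The type V chains start and thin the fibrils of types I and III. Col5a1 (chromosome 2, 27886425 to 28039514) had 6.56, 8.06 and 8.57 CPM in Ctrl, 0.887, 1.94 and 2.62 in ABpIF/+ and 6.79, 8.72 and 11.2 in ABpIF/F mice. Col5a2 (chromosome 1, 45374321 to 45503282), which lies tail to tail with Col3a1 at a distance of 24614 bases, had 2.54, 4.74 and 6.58 CPM in Ctrl, 0.323, 0.969 and 1.34 in ABpIF/+ and 4.43, 4.47 and 14.5 in ABpIF/F mice. Both were lower in ABpIF/+ than in Ctrl without overlap, by log2 fold changes of -2.06 ± 0.20 (adjusted p = 6.18e-08) and -2.28 ± 0.36 (adjusted p = 6.02e-05). With BG3 as the 1 Ctrl mouse Col5a2 was at -1.65 and no longer called (adjusted p = 0.103). Neither passed the test between ABpIF/F and Ctrl (adjusted p = 0.801 and 0.189).

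Col5a3, the third type V chain (chromosome 9, 20770050 to 20815067), behaved less uniformly. Its CPM were 2.65, 3.86 and 19.3 in Ctrl, 1.06, 2.46 and 3.99 in ABpIF/+ and 12.3, 12.7 and 21.1 in ABpIF/F mice. The highest Ctrl value was that of malpa387, and the other 5 Ctrl mice had at most 7.18. It was not called for ABpIF/+ vs Ctrl (log2 fold change -1.49 ± 0.50, adjusted p = 0.0415, with an adjusted p of 0.00625 in DESeq2) nor for ABpIF/F vs Ctrl (1.19 ± 0.55, adjusted p = 0.188), and was higher in ABpIF/F than in ABpIF/+ (2.68 ± 0.56, adjusted p = 0.0043). Without malpa387 its change for ABpIF/F vs Ctrl was 1.86 and called (adjusted p = 0.000594). The clock gene score of that mouse was near those of the ABpIF/F mice, and with the score as a covariate ABpIF/F and ABpIF/+ differed by 1.67 (adjusted p = 0.0955), which ends the call. The call was also lost without any 1 of ABpIF/+ mice BG175, BG31 and BG88 and ABpIF/F mice BG183 and BG38, at log2 fold changes between 2.38 and 2.81 (adjusted p between 0.0110 and 0.0198).

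Col27a1, a fibrillar collagen of cartilage that is also present at low level elsewhere (chromosome 4, 63214004 to 63334991), had 8.67, 16.8 and 20.6 CPM in Ctrl, 2.36, 4.36 and 9.09 in ABpIF/+ and 8.25, 9.69 and 10.2 in ABpIF/F mice. It fell by 1.66 ± 0.28 on the log2 scale in ABpIF/+ (adjusted p = 0.000254), where the highest ABpIF/+ mouse, BG40, overlapped the Ctrl range. With BG3 as the 1 Ctrl mouse the change was -1.12 and not called (adjusted p = 0.173). The ABpIF/F mice lay at the low end of the Ctrl range, 1 of them below it (-0.74 ± 0.34, adjusted p = 0.182). The remaining fibrillar genes, Col2a1, Col11a1, Col11a2 and Col24a1, stayed under 1 CPM and were not called.

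**Figure D1:**
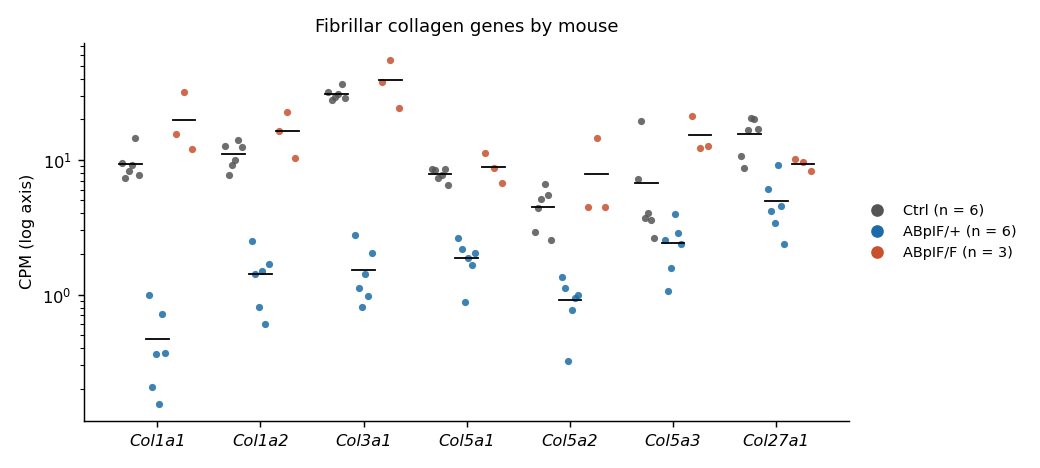
CPM of the 7 fibrillar collagen genes with at least 1 CPM in a group, on a log axis, with 1 point per mouse and a bar at the group mean. For Col1a1, Col1a2, Col3a1, Col5a1 and Col5a2 all 6 ABpIF/+ mice lie below all Ctrl and ABpIF/F mice, and for Col5a3 1 Ctrl mouse at 19.3 CPM lies among the ABpIF/F mice.

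Basement membrane collagens did not move as a block. In ABpIF/+ livers 3 of 8 were higher than in Ctrl (Col4a3, Col4a4 and Col4a5), 1 was lower (Col15a1) and 4 were not called. The same counts, 3 and 1 of 8, were found for ABpIF/F vs Ctrl, with 1 gene, Col4a1, higher in ABpIF/F than in ABpIF/+.

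The α3, α4 and α5 chains of type IV assemble into a network that is best known from the kidney glomerulus. Col4a3 (Entrez 12828, chromosome 1, 82586921 to 82722059, plus strand) had 0.246, 1.21 and 1.67 CPM in Ctrl, 17.4, 22.9 and 34.2 in ABpIF/+ and 22.7, 26.6 and 46.3 in ABpIF/F mice. Col4a4 (Entrez 12829, chromosome 1, 82448423 to 82586849, minus strand) had 0.149, 0.398 and 0.898 CPM in Ctrl, 3.15, 4.09 and 4.57 in ABpIF/+ and 4.32, 6.07 and 9.50 in ABpIF/F mice. For both genes every ABpI mouse was above every Ctrl mouse, and the ABpI groups overlapped. Col4a3 was higher than in Ctrl by 4.37 ± 0.32 in ABpIF/+ (adjusted p = 5.45e-08) and by 4.75 ± 0.35 in ABpIF/F (adjusted p = 1.48e-07), and Col4a4 by 3.08 ± 0.31 (adjusted p = 8.91e-08) and 3.82 ± 0.34 (adjusted p = 4.93e-08). Between ABpIF/F and ABpIF/+ neither passed the test (0.38 ± 0.32 and 0.74 ± 0.31, adjusted p = 0.542 and 0.117).

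Col4a3 and Col4a4 lie head to head with 71 bases between their starts, which is why that stretch is shown, in capitals, within the RefSeq window of Col4a4 (minus strand, chr1:82586800-82587099).
Col4a4: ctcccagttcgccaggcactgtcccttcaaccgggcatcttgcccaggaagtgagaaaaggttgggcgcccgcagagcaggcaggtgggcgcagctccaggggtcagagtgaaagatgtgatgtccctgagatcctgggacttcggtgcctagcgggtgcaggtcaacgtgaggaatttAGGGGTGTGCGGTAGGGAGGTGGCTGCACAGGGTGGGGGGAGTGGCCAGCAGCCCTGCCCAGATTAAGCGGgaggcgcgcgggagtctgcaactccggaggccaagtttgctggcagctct
The window holds none of the 3 motifs on either strand. Both genes of this pair were called higher in both ABpI groups, and their transcripts do not overlap in the GENCODE annotation.

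Col4a5, the X-linked partner of these chains (X, 141475385 to 141689234), had 1.15, 2.41 and 3.09 CPM in Ctrl, 3.47, 5.68 and 7.64 in ABpIF/+ and 7.51, 7.72 and 11.0 in ABpIF/F mice. It was higher than in Ctrl by 1.30 ± 0.22 in ABpIF/+ (adjusted p = 8.60e-05) and by 1.92 ± 0.25 in ABpIF/F (adjusted p = 9.41e-06), without overlap. Its head-to-head neighbour Col4a6, at a distance of 1308 bases, stayed under 1 CPM on average in each group and was not called. Its change for ABpIF/F vs Ctrl was 2.16 ± 0.68 (adjusted p = 0.0298), and its highest value, 1.66 CPM, was that of mouse BG38.

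The α1 and α2 chains make up the common network of nearly all basement membranes. Col4a1 (chromosome 8, 11198423 to 11312826) had 20.1, 27.2 and 34.9 CPM in Ctrl, 12.3, 16.9 and 21.4 in ABpIF/+ and 42.4, 45.2 and 68.5 in ABpIF/F mice. Col4a2 (chromosome 8, 11312805 to 11449287) had 15.8, 19.0 and 27.8 CPM in Ctrl, 15.5, 21.8 and 24.9 in ABpIF/+ and 34.9, 39.6 and 43.3 in ABpIF/F mice. The ABpIF/F mice were above all other mice for both genes. Against Ctrl the ABpIF/F difference was 0.92 ± 0.18 for Col4a1 (adjusted p = 0.00086) and 0.98 ± 0.17 for Col4a2 (adjusted p = 0.000161), just under the 2-fold threshold, and against ABpIF/+ it was 1.61 ± 0.18 (adjusted p = 4.06e-06, called) and 0.89 ± 0.17 (adjusted p = 0.000547). In ABpIF/+ vs Ctrl, Col4a1 had a change of -0.69 ± 0.16 (adjusted p = 0.00174), short of 2-fold, and Col4a2 one of 0.09 ± 0.14 (adjusted p = 0.883).

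The first exons of these 2 genes overlap by 22 bases on opposite strands, shown in capitals in the RefSeq window of Col4a1 (minus strand, chr8:11312777-11313076).
Col4a1: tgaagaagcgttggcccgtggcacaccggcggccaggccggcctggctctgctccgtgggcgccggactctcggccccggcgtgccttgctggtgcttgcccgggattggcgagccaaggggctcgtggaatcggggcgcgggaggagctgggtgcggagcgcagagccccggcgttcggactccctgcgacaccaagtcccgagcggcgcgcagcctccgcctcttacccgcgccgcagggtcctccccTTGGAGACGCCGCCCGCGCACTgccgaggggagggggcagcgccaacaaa
The strand setting of the counting was not given in the sources used here, and these bases are a small part of transcripts of 6615 and 6450 bases.

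Col15a1 and Col18a1, the multiplexin genes, differed from each other. Col15a1 (chromosome 4, 47208161 to 47313167) had 8.70, 11.8 and 19.3 CPM in Ctrl, 0.663, 1.24 and 3.64 in ABpIF/+ and 3.61, 4.02 and 4.21 in ABpIF/F mice. It was lower than in Ctrl in ABpIF/+ (-3.08 ± 0.35, adjusted p = 4.27e-06) and in ABpIF/F mice (-1.73 ± 0.42, adjusted p = 0.0081), and all ABpI mice lay below the Ctrl range. The ABpIF/F call was lost without any 1 of Ctrl mice malpa454, malpa458, malpa459 and malpa462, ABpIF/+ mice BG30 and BG31 and any of the 3 ABpIF/F mice (adjusted p between 0.0118 and 0.0486), with the clock score as a covariate (adjusted p = 0.231) and with BG3 as the 1 Ctrl mouse (-1.18, adjusted p = 0.370). In that last setting the ABpIF/+ difference was -2.50 and also not called (adjusted p = 0.0102). For ABpIF/F vs ABpIF/+, Col15a1 had a change of 1.36 ± 0.40 with all mice and was not called (adjusted p = 0.0264). DESeq2 called it higher there (1.37, adjusted p = 0.00305). Col18a1 (chromosome 10, 77052178 to 77166548), which hepatocytes express, had 804, 856 and 885 CPM in Ctrl, 1142, 1240 and 1494 in ABpIF/+ and 829, 1073 and 1261 in ABpIF/F mice. All ABpIF/+ mice were above the Ctrl mice, at a 1.52-fold difference (0.60 ± 0.13, adjusted p = 0.0012) that did not reach the 2-fold threshold, and the ABpIF/F mice overlapped both groups.

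**Figure D2:**
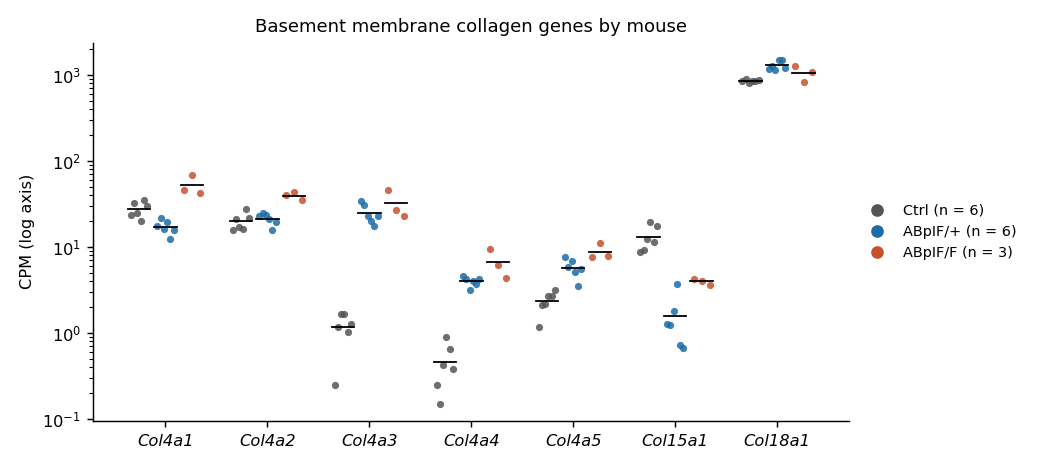
CPM of the 7 basement membrane collagen genes with at least 1 CPM in a group, on a log axis, with 1 point per mouse and a bar at the group mean. Col4a3, Col4a4 and Col4a5 are higher in every ABpI mouse than in every Ctrl mouse, Col15a1 is lower, and Col4a1 and Col4a2 are highest in the 3 ABpIF/F mice.

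Of the 24 other collagens 7 were lower and 1 was higher in ABpIF/+ than in Ctrl, and 8 were higher in ABpIF/F than in ABpIF/+. Against Ctrl 1 of the 24, Col16a1, was called in ABpIF/F mice. These single higher genes, 4.17% of the 24 in each case, are near the 4.69% and 4.55% of all genes called higher. Their summed CPM lay between 67.8 and 84.5 in Ctrl, between 18.9 and 32.1 in ABpIF/+ and between 57.8 and 113 in ABpIF/F mice.

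Type VI collagen forms the beaded filaments around cells from α1, α2 and one further chain. Col6a1 (chromosome 10, 76708792 to 76726168) had 3.72, 5.40 and 7.40 CPM in Ctrl, 0.403, 0.907 and 2.43 in ABpIF/+ and 2.93, 4.71 and 4.76 in ABpIF/F mice. Col6a2, its neighbour on the same strand (76595762 to 76623630), had 3.21, 4.31 and 6.16 CPM in Ctrl, 0.444, 0.847 and 0.991 in ABpIF/+ and 2.57, 5.61 and 5.71 in ABpIF/F mice. Col6a3 (chromosome 1, 90765923 to 90843971) had 5.54, 6.93 and 10.4 CPM in Ctrl, 0.658, 1.30 and 1.73 in ABpIF/+ and 4.43, 8.78 and 19.8 in ABpIF/F mice. All 3 were lower in every ABpIF/+ mouse than in any other mouse, by -2.23 ± 0.30, -2.46 ± 0.26 and -2.54 ± 0.32 against Ctrl (adjusted p = 6.47e-06, 1.72e-07 and 7.13e-06). With BG3 as the 1 Ctrl mouse the calls of Col6a1 (-1.98, adjusted p = 0.0310) and Col6a3 (-2.13, adjusted p = 0.0336) were lost. None passed the test between ABpIF/F and Ctrl (adjusted p = 0.614, 1 and 0.322). Col6a5, an alternative to the α3 chain, was counted at 3 counts or fewer in each ABpIF/+ library and was at least 3.46-fold lower there than in Ctrl and at least 4.80-fold lower than in ABpIF/F (adjusted p = 6.31e-05 and 0.00013), at mean levels of 0.380 and 0.527 CPM in those groups.

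Among the collagens on the surface of fibrils, Col14a1 (chromosome 15, 55307750 to 55520803), which limits fibril growth, had the highest level. Its CPM were 39.3, 43.8 and 50.2 in Ctrl, 4.72, 8.99 and 13.7 in ABpIF/+ and 32.3, 47.5 and 56.3 in ABpIF/F mice. The ABpIF/+ difference was -2.25 ± 0.24 (adjusted p = 2.20e-06), or -2.45 and not called with BG3 as the 1 Ctrl mouse (adjusted p = 0.0144), and the means of ABpIF/F and Ctrl differed by 0.05 ± 0.28 (adjusted p = 1). Col12a1 (chromosome 9, 79598991 to 79718831), which links fibrils under tension, was lower in ABpIF/+ at 0.590, 1.02 and 1.33 CPM against 1.84, 2.38 and 2.92 in Ctrl (-1.22 ± 0.26, adjusted p = 0.00108), but not with BG3 as the 1 Ctrl mouse (-0.90, adjusted p = 0.377). Its ABpIF/F values were 2.04, 2.28 and 4.57 CPM, higher than in ABpIF/+ (1.55 ± 0.30, adjusted p = 0.000828), a call that was lost without mouse BG38 (adjusted p = 0.0255) and with the clock score as a covariate (1.64, adjusted p = 0.0256).

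Col16a1 (chromosome 4, 130047840 to 130099283), a minor collagen associated with fibrils, had 1.41, 1.94 and 2.71 CPM in Ctrl, 0.377, 0.972 and 1.65 in ABpIF/+ and 3.00, 4.79 and 13.1 in ABpIF/F mice. Each ABpIF/F mouse was above all other mice. It was higher in ABpIF/F than in Ctrl (1.84 ± 0.40, adjusted p = 0.00204) and than in ABpIF/+ (2.89 ± 0.41, adjusted p = 5.15e-05). Without BG38, the mouse at 13.1 CPM, the difference from Ctrl was 0.99 and not called (adjusted p = 0.122), and with the clock score as a covariate it was 2.17 (adjusted p = 0.0495). With BG3 as the 1 Ctrl mouse it was 1.31 (adjusted p = 0.506).

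Col8a1, a short-chain collagen of vessel walls, stayed under 1 CPM on average, with between 0.435 and 0.893 CPM in Ctrl and between 0 and 0.242 in ABpIF/+ mice (-3.24 ± 0.59, adjusted p = 0.000209). Col22a1, a collagen of tissue junctions, had 3 counts or fewer in each Ctrl library and between 0 and 0.955 CPM in ABpIF/+ mice, a mean at least 4.55-fold above that floor (adjusted p = 0.0059), with 1 ABpIF/+ mouse at 0. The anchoring fibril gene Col7a1, the hemidesmosome gene Col17a1, and Col6a6, Col8a2, Col9a2, Col9a3, Col10a1, Col23a1 and Col25a1 were not called in any comparison, and their highest group means lay between 0.0733 and 0.902 CPM. The transmembrane collagen gene Col13a1 and the FACIT gene Col20a1 were above 1 CPM in all groups and were not called in any comparison. The lowest and highest levels over all mice were 1.02 and 4.26 CPM for Col13a1 and 1.72 and 5.16 CPM for Col20a1.

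**Figure D3:**
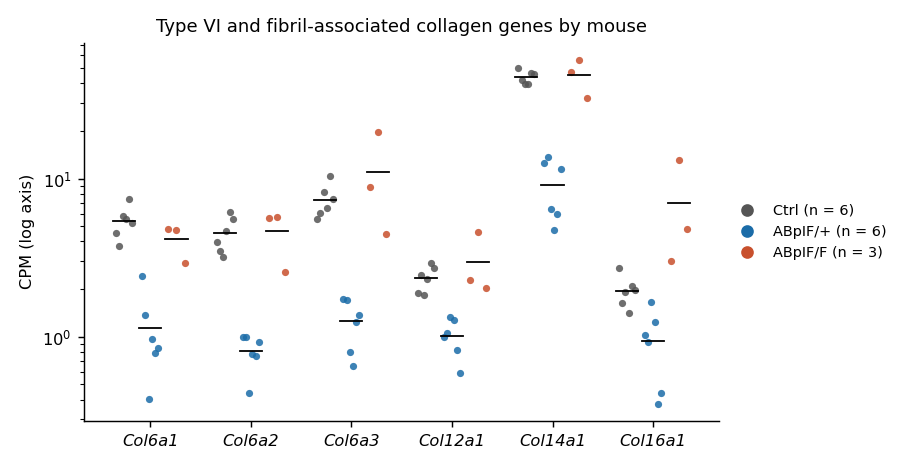
CPM of the type VI chains and of 3 FACIT collagens, on a log axis, with 1 point per mouse and a bar at the group mean. For Col6a1, Col6a2, Col6a3, Col12a1 and Col14a1 the 6 ABpIF/+ mice lie below the Ctrl and ABpIF/F mice, and for Col16a1 the 3 ABpIF/F mice, at 3.00 to 13.1 CPM, lie above all others.

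**Figure D4:**
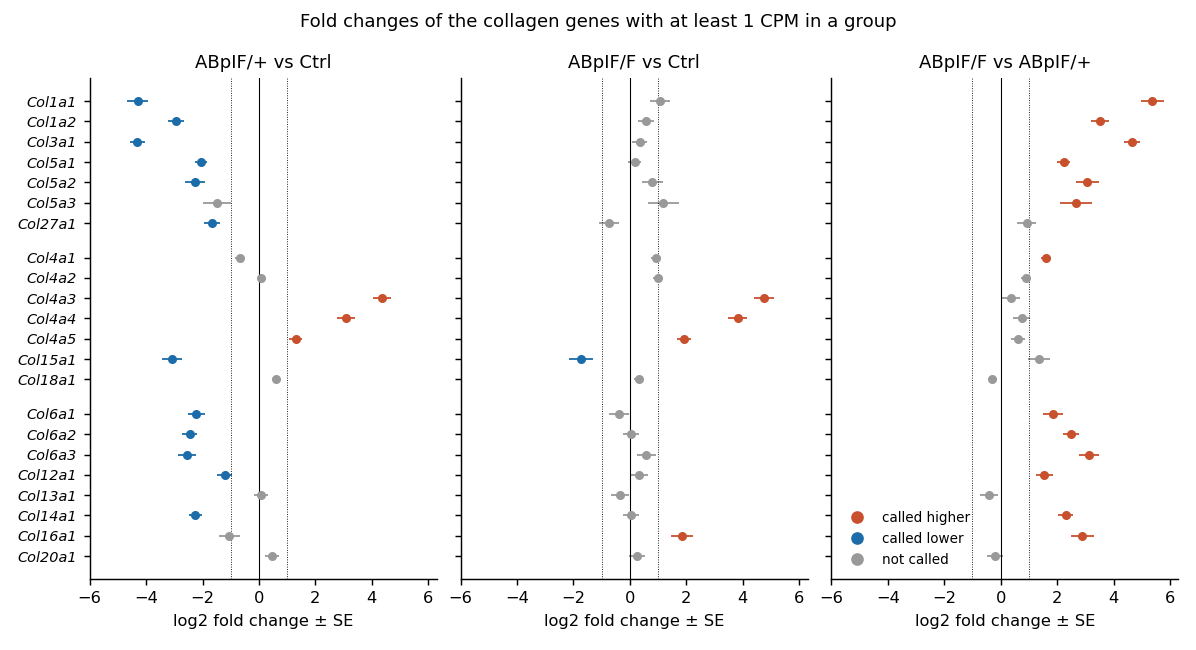
Log2 fold changes ± SE (horizontal axis) of the 22 members with at least 1 CPM in a group, ordered as fibrillar, basement membrane and other collagens, in the 3 comparisons, with dotted lines at the 2-fold threshold. The fibrillar genes lie between -4.32 and -1.49 in ABpIF/+ vs Ctrl and between -0.74 and 1.19 in ABpIF/F vs Ctrl, while Col4a3 and Col4a4 are above 3 in both.

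Ratios of chains that assemble into the same molecule were compared within each mouse, for 5 pairs in 3 comparisons, a choice made after the values were seen. The Col4a1 to Col4a2 count ratio was between 1.26 and 1.52 in Ctrl, between 0.695 and 0.929 in ABpIF/+ and between 1.14 and 1.58 in ABpIF/F mice. Every ABpIF/+ mouse thus had fewer Col4a1 than Col4a2 counts, and every other mouse more. The mean log2 ratio was 0.78 lower in ABpIF/+ than in Ctrl (two-sided exact permutation test, p = 0.00216, the smallest that 6 against 6 mice allow, adjusted p = 0.0325 over 15 tests). Between ABpIF/F and ABpIF/+ the difference was 0.69 (exact permutation p = 0.0238, the smallest that 6 against 3 allow, adjusted p = 0.0893). The Col1a1 to Col1a2 ratio lay between 0.614 and 1.02 in Ctrl and between 0.114 and 1.18 in ABpIF/+ mice, where BG55 was the highest, and differed by -1.46 (exact permutation p = 0.0195, adjusted p = 0.0893). The adjusted p of the other 12 tests was between 0.0893 and 0.831.

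**Figure D5:**
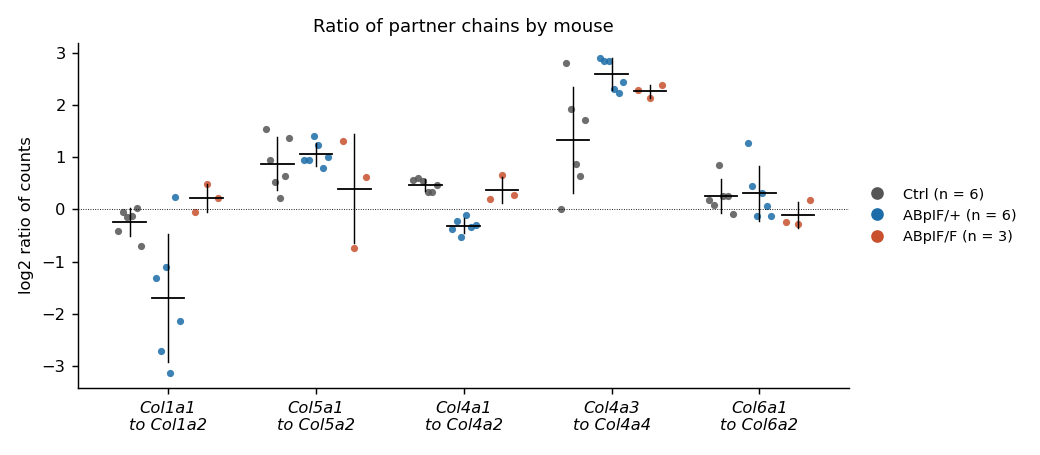
Log2 ratio of the counts of partner chains (vertical axis) in each mouse, with the group mean and SD as bars. The Col4a1 to Col4a2 ratio is below 0 in all 6 ABpIF/+ mice and above 0 in all Ctrl and ABpIF/F mice, while Col5a1 to Col5a2 and Col6a1 to Col6a2 overlap between the groups.

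Other genes of collagen production, signalling, binding and turnover were read from 6 lists of 70 genes in all. In ABpIF/+ vs Ctrl 20 of the 70 were lower and 6 higher, in ABpIF/F vs Ctrl 2 were lower and 14 higher, and 33 were higher and 1 lower in ABpIF/F than in ABpIF/+. These are 28.6% and 8.57%, 2.86% and 20.0%, and 47.1% and 1.43% of the lists, and of all genes 5.35% and 4.69%, 2.38% and 4.55%, and 5.49% and 1.76% were called in the same order. The 2 and 1 genes called lower in the last 2 comparisons are thus near the shares of all genes, and counts of 1 or 2 in a single list are given as values only. Among the 18 genes of collagen modification and folding, 3 were lower in ABpIF/+ than in Ctrl. Serpinh1, which codes for the collagen chaperone HSP47, had between 6.99 and 11.6 CPM in Ctrl, between 0.696 and 1.71 in ABpIF/+ and between 6.53 and 12.2 in ABpIF/F mice (-3.03 ± 0.23 for ABpIF/+ vs Ctrl, adjusted p = 1.63e-09). The ABpIF/+ mice were thus apart from both other groups, as for Col1a1 and Col3a1.

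Of 13 genes of procollagen processing and cross-linking, 5 were lower and 1 higher in ABpIF/+ than in Ctrl, and 2 were higher in ABpIF/F than in Ctrl. Lysyl oxidases cross-link secreted fibrils, and the members of that family did not share one pattern. Loxl1 had between 0.994 and 2.83 CPM in Ctrl, between 0 and 0.387 in ABpIF/+ and between 1.36 and 5.10 in ABpIF/F mice (-3.18 ± 0.48 for ABpIF/+ vs Ctrl, adjusted p = 2.37e-05). Loxl4 had between 1.73 and 7.48 CPM in Ctrl, between 1.38 and 2.51 in ABpIF/+ and between 14.1 and 49.8 in ABpIF/F mice (3.30 ± 0.47 for ABpIF/F vs Ctrl, adjusted p = 0.000179). Its highest Ctrl value was that of malpa387, the Ctrl mouse with the low clock gene score, and the other Ctrl mice had at most 2.30. Adamts14, a procollagen N-propeptidase, was higher than in Ctrl in both groups (1.90 ± 0.36 in ABpIF/+ and 2.88 ± 0.40 in ABpIF/F, adjusted p = 0.000477 and 4.28e-05).

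Of the 8 proteoglycans that bind fibrils, 5 were lower in ABpIF/+ than in Ctrl and 5 were higher in ABpIF/F than in ABpIF/+. Lumican (Lum), which regulates fibril spacing, had between 8.05 and 9.61 CPM in Ctrl, between 0.340 and 1.47 in ABpIF/+ and between 4.73 and 9.11 in ABpIF/F mice, and fell by 3.32 ± 0.28 on the log2 scale in ABpIF/+ (adjusted p = 7.17e-09). Biglycan (Bgn) had between 50.8 and 71.0, between 8.28 and 21.9 and between 40.5 and 95.0 CPM in the same order of groups (-1.90 ± 0.28 for ABpIF/+ vs Ctrl, adjusted p = 0.000116).

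The 10 collagen receptors split by gene, with 2 higher and 2 lower in ABpIF/+ than in Ctrl. The discoidin domain receptors, tyrosine kinases that bind collagen, differed in direction. Ddr1, the epithelial receptor, rose from between 1.44 and 2.98 CPM in Ctrl to between 11.8 and 18.1 in ABpIF/+ and between 13.5 and 41.6 in ABpIF/F mice (2.81 ± 0.24 and 3.72 ± 0.27, adjusted p = 5.87e-08 and 2.24e-08). Ddr2, the mesenchymal receptor, had between 4.31 and 5.91 CPM in Ctrl, between 0.226 and 1.41 in ABpIF/+ and between 3.57 and 5.04 in ABpIF/F mice (-2.48 ± 0.28 for ABpIF/+ vs Ctrl, adjusted p = 4.48e-07). Mrc2, which takes up collagen fragments, had at most 0.116 CPM in ABpIF/+ mice and at least 1.31 in all others (-4.80 ± 0.43 against Ctrl, adjusted p = 1.72e-08).

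Among 12 profibrotic ligands and receptors 2 were higher and 3 lower in ABpIF/+ than in Ctrl, while 6 were higher in ABpIF/F than in Ctrl. Tgfb2 had between 2.77 and 11.3 CPM in ABpIF/F mice and at most 0.995 in Ctrl (3.18 ± 0.43, adjusted p = 1.24e-05). Pdgfc, a growth factor for mesenchymal cells, lay between 5.22 and 17.7 CPM in ABpIF/F mice, against 1.92 to 5.96 in Ctrl (2.08 ± 0.35, adjusted p = 0.000299). Here too malpa387 was the highest Ctrl mouse, and the other Ctrl mice had at most 3.40 CPM. Of 9 genes of collagen degradation, 1 was higher and 2 were lower in ABpIF/+ than in Ctrl and 5 were higher in ABpIF/F than in ABpIF/+. Mmp2, a gelatinase of mesenchymal cells, had between 2.01 and 3.35 CPM in Ctrl and between 0.0737 and 0.927 in ABpIF/+ mice (-2.60 ± 0.41, adjusted p = 4.34e-05), and Timp2, an inhibitor of such enzymes, was lower by 1.13 ± 0.23 (adjusted p = 0.00121).

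Marker genes of cell types were read beside these results, and their lists did not share a common direction. Of 15 markers of stellate cells and fibroblasts, 11 were lower in ABpIF/+ than in Ctrl, beside 5.35% of all genes. In ABpIF/F mice 10 were higher than in ABpIF/+, beside 5.49% of all genes. Against Ctrl 1 was higher and 1 lower in ABpIF/F mice, given as values only. Their summed CPM lay between 216 and 382 in Ctrl, between 62.2 and 119 in ABpIF/+ and between 192 and 282 in ABpIF/F mice, and no marker was at 0 in every mouse of a group. The fibroblast gene Dpt had between 2.27 and 4.31 CPM in Ctrl and at most 0.136 in ABpIF/+ mice (-5.29 ± 0.39, adjusted p = 1.04e-09). Divided by the summed stellate cell and fibroblast markers of the same mouse, the summed fibrillar CPM were between 0.219 and 0.417 in Ctrl, between 0.120 and 0.266 in ABpIF/+ and between 0.416 and 0.564 in ABpIF/F mice, with means of 0.329, 0.169 and 0.465. The Ctrl and ABpIF/+ ranges overlapped through Ctrl mouse BG3 at 0.219 and ABpIF/+ mouse BG40 at 0.266. BG3 was the 1 Ctrl mouse with the strain label of the ABpI mice. The lowest Ctrl mouse of the other strain label was at 0.270. By group mean, Ecm1 and Reln had the highest levels of these markers. Ecm1 averaged 134 CPM in Ctrl, 35.7 in ABpIF/+ and 67.1 in ABpIF/F mice. Reln averaged 49.97, 26.3 and 104 CPM in the same order, and the summed markers 274, 85.8 and 250. In BG3, Ecm1 was at 212 of the 382 CPM summed. The ratio thus depends on the balance of these markers and is not a measure of collagen RNA per stellate cell.

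Of the macrophage markers 4 of 7, and of the endothelial markers 3 of 8, were called lower in ABpIF/+ than in Ctrl, beside 5.35% of all genes. The 2 of 7 for lymphocytes and 1 of 4 for smooth muscle are given as values only. Macrophage markers summed to between 306 and 427 CPM in Ctrl, between 109 and 207 in ABpIF/+ and between 262 and 573 in ABpIF/F mice, and endothelial markers to between 190 and 286, between 87.7 and 193 and between 219 and 283. The 5 mesothelial markers summed to at most 11.1 CPM in any mouse. Cholangiocyte markers were higher in ABpIF/F than in Ctrl for 5 of 7, beside 4.55% of all genes. Their sums lay between 49.4 and 87.9 CPM in Ctrl, between 54.7 and 176 in ABpIF/+ and between 236 and 1195 in ABpIF/F mice. Most of the ABpIF/F sums was Spp1, at 175, 724 and 1081 CPM, while Krt19 was called lower in ABpIF/+ than in Ctrl (-1.21, adjusted p = 0.00912) and Krt19 and Krt7 were not called in ABpIF/F vs Ctrl (adjusted p = 0.0431 and 0.332). Hepatocyte markers (8) were higher for 2 in ABpIF/+ and lower for 1 in ABpIF/F than in Ctrl, again given as values only. The part of cell composition in the collagen differences was not tested.

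With the comparison restricted to mice of the ABpI strain label, which leaves BG3 as the 1 Ctrl mouse, 9 members were called in ABpIF/+ vs Ctrl, 6 lower and 3 higher, in place of 18 (14 lower and 4 higher), the lone Ctrl mouse being assumed to vary like the other groups. Beside the lost calls given with their genes, those of Col8a1 and Col22a1, both under 1 CPM, were lost there. In that mouse Col1a1 was at 9.56, Col14a1 at 50.2 and Col4a3 at 0.246 CPM, so that its Col1a1 value lay within the range of the other Ctrl mice, Col14a1 was the highest and Col4a3 the lowest. In ABpIF/F mice, BG38 had the highest value of the 3 for 12 of the 22 members with at least 1 CPM in a group, BG183 for 10 and BG90 for 0. Without BG38, 13 members were higher in ABpIF/F than in ABpIF/+ (15 with it), and 3 were called against Ctrl (5 with it).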

How the data were processed

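Total RNA of mouse livers was sequenced as stranded mRNA libraries, and the authors aligned reads to mm10 (GRCm38) with HISAT2 and counted them with featureCounts 2.0.8. The gene annotation and strand setting were not given in the sources used here. The deposited values are raw counts (27179 genes, 15 columns). Each column is 1 mouse, whereas the labels list 23 samples, since 8 mice are named by 2 of them. The counts were read from 1 of 2 tables. In the other, 5 columns headed only by numbers were not used, and its other 10 columns held equal counts.

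Counts were scaled by TMM and tested with edgeR 4.0.16 (R 4.3.3) by the quasi-likelihood F-test of the earlier edgeR releases with robust dispersions, on all genes and with 3 groups in 1 model, and p-values were adjusted by Benjamini-Hochberg. DESeq2 1.42.0 was an alternative. On simulated counts the procedure was tested before use. RPKM used the transcript with the longest coding part in GENCODE M21. Floors of 3 counts cover counting error only. Chain ratios used a pseudocount of 0.5 on counts. Sequences came from RefSeq (GRCm38.p6).

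Every member could be named. Values per mouse were given for members called in any comparison with a group mean of at least 1 CPM, and also for Col4a2 and Col18a1 as partner and most abundant chains. Of each other list, up to 4 called genes with the largest changes could be named, and further genes where they limit the reading of a summed level. The members and lists were chosen with earlier results of these data known. Alternatives were other scaling, filters, models and thresholds, leaving out each mouse, 1 strain label and a clock gene score.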

Additional observations from a re-analysis of the deposited data

Results flagged for a closer look

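In groups of 6 mice, the highest or lowest mouse was set against the others by Dixon's ratio, for the 18 genes with values per mouse and the 5 chain ratios. Of 46 such groups 6 held a mouse past the 95% critical value, and chance gives about 1 in 20. Col1a1 was at 14.4 CPM in Ctrl mouse malpa459, with the others between 7.37 and 9.56. Col5a3 was at 19.3 CPM in Ctrl mouse malpa387, with the others between 2.65 and 7.18. Col15a1 was at 3.64 CPM in ABpIF/+ mouse BG40, with the others between 0.663 and 1.77. The Col6a1 to Col6a2 ratio was 1.81 in Ctrl mouse malpa454 (others 0.940 to 1.20) and 2.43 in ABpIF/+ mouse BG175 (others 0.913 to 1.37). The Col1a1 to Col1a2 ratio was 1.18 in ABpIF/+ mouse BG55 (others 0.114 to 0.463). Leaving out malpa387 called Col5a3 higher in ABpIF/F than in Ctrl, and leaving out BG40 called Col15a1 higher in ABpIF/F than in ABpIF/+ (log2 fold change 1.81, adjusted p = 0.000238). DESeq2 also called this Col15a1 difference with all mice (adjusted p = 0.00305).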

How the results depend on the processing

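No paired analysis was possible because the suffixes 1 and 2 in the labels mark 2 samples of 1 mouse, and the deposited columns hold 1 value per mouse. The other deposited table was not run for all mice, since 5 of its columns, headed by bare numbers, were left out, and its other 10 columns held equal counts. The number of collagen genes called for ABpIF/+ vs Ctrl was 18, and lay between 17 and 18 with each mouse left out. It was 9 with mice of the ABpI strain label only, and moved by less than 1.5 times in the other settings. For ABpIF/F vs Ctrl it was 5, between 3 and 7 with each mouse left out, 3 with the clock gene score as covariate, 10 at an adjusted p under 0.05 with any fold change, and 2 at 4-fold. For ABpIF/F vs ABpIF/+ it was 15, between 13 and 17 with each mouse left out. Of these, none was lower, against 1 (Col22a1) with edgeR 4 and at an adjusted p under 0.05 with any fold change. With mice of the ABpI strain label only, the median log2 fold change was -0.10 in place of -0.82 for ABpIF/+ vs Ctrl and 0.94 in place of 0.34 for ABpIF/F vs Ctrl. For ABpIF/F vs ABpIF/+, in place of 1.12, it was 0.94 with DESeq2, 1.54 with filterByExpr and 1.67 with the clock score, and for ABpIF/+ vs Ctrl -1.16 with filterByExpr. Signs turned only in differences that were not called. For ABpIF/F vs Ctrl, Col6a1 was at 0.19 and Col27a1 at 0.072 with the clock score, Col6a2 at -0.011 and Col14a1 at -0.0011 with filterByExpr, and Col14a1 at -0.19 with mice of the ABpI strain label. With each mouse left out, the log2 fold change for ABpIF/F vs Ctrl ranged from -0.017 to 0.34 for Col5a1, from -0.018 to 1.08 for Col5a2, from -0.14 to 0.33 for Col6a2, from -0.15 to 0.96 for Col6a3, from -0.13 to 0.54 for Col12a1 and from -0.13 to 0.24 for Col14a1. The log2 ratio of Col5a1 to Col5a2 differed by between -0.94 and 0.092 for ABpIF/F vs Ctrl, and that of Col6a1 to Col6a2 by between -0.14 and 0.17 for ABpIF/+ vs Ctrl. The cause was not tested, except that the strain label setting leaves 1 Ctrl mouse. The RLE, edgeR 4 and 2-group settings changed no call of the 18 genes with values per mouse. Counts of a few reads in ABpIF/+ libraries limit the fold changes of the lowest genes.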
